A study of Mus musculus with 24 samples.

Results

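The clustered histone genes of the mouse were described from H3K4me3 profiles of the cerebral cortex, as the regions that overlap an annotated transcription start site (TSS) of a gene whose symbol begins with Hist1h, Hist2h, Hist3h or Hist4h. Of 17993 regions counted in the series, 24 met this rule. They hold the starts of 29 of the 70 annotated genes with such symbols, of which 67 are protein-coding and 3 are pseudogenes. The rule itself uses no measured value, but it was set with earlier results of these data known. H3K4me3, trimethylation of lysine 4 of histone H3, was measured in 4 groups of 3 libraries from C57BL/6 mice. Each lysate was made from the cortices of 2 animals. In the Rosa H2B-FLAG line (Rosa CAG-H2B-FLAG), FLAG-tagged histone H2B is expressed in nearly all cells from the Rosa26 locus, after recombination by Vasa-Cre, and the mice were heterozygous. The age and sex of these mice are not given in the sources used here, so line, age, sex and tamoxifen cannot be told apart. In the Camk2a H2B-FLAG line (Rosa26 CAG-floxed-pA-H2B-FLAG/CaMKCreERT2), the same allele is opened by a tamoxifen-inducible Cre that is driven by the Camk2a promoter, which is active in excitatory neurons. These were males heterozygous for both alleles that received 1 mg of tamoxifen per day for 5 days from 8 weeks of age and were collected a month later. All groups therefore carry the tagged H2B gene, and no untagged animals were compared. From each line, single ChIP-Seq used the anti-H3K4me3 antibody on whole cortex chromatin, and tandem ChIP-Seq (tChIP-Seq) first purified chromatin with anti-FLAG antibody and then with anti-H3K4me3.

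Histones package DNA into nucleosomes, which are built from the core histones H2A, H2B, H3 and H4, and linker histone H1 binds between them. The clustered genes supply most new histone protein when DNA is replicated in S phase, and their mRNAs end in a stem-loop instead of a poly(A) tail. Many stand in divergent H2A and H2B pairs that share one short promoter. Cortical neurons do not divide, and variant histones from other loci such as H3f3a and H3f3b are made throughout the cell cycle. H3K4me3 marks the nucleosomes around active or poised promoters.

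The regions were unevenly spread over the clusters. On chromosome 13, Hist1 was split where neighbouring TSSs lay more than 250000 bp apart. The part with the lower coordinates (Hist1a, 327.1 kb) held 24 genes, of which 5 had a region, and the next part (Hist1b, 403.4 kb) held 31 genes, of which 16 shared 13 regions. Hist1h2al stood alone and had no region. Hist2 on chromosome 3 held 10 genes, of which 5 shared 3 regions. Hist3 on chromosome 11 held 3 genes with 2 regions, and Hist4h4 on chromosome 6 had its own region. By histone type, 5 of 6 H1 genes, 9 of 13 H4 genes, 7 of 19 H2B genes, 5 of 20 H2A genes and 3 of 12 H3 genes had a region. Hist1h2ba and Hist1h2aa, known from the testis, had none within 169506 bp and 169812 bp. Hist1h1t, the testis linker histone, had none within 1647 bp. Hist1h2bc and Hist1h2ac, a divergent pair whose H2B member can also be made outside S phase as a polyadenylated mRNA, started 270 bp and 521 bp from the nearest region.

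The start regions below are those of Hist3h2ba, Hist3h2a, Hist1h2bb, Hist2h2be, Hist1h1d and Hist1h1a. In the tChIP-Seq comparison of the lines, both Hist3 regions were higher in the Camk2a line. The regions of Hist1h2bb, Hist2h2be and Hist1h1d were lower there, and that of Hist1h1a, a linker gene, was not called. By single ChIP-Seq none of these regions was called between the lines, where 0.928% of all regions were higher and 1.22% lower. Hist1h2bh, Hist1h4d and Hist2h4 are not shown, since their annotated TSSs lie 7, 4 and 7 bases before the start codon. Each line gives the 200 bases before the annotated TSS in mm9, 5′ to 3′ on the strand of the gene. Capitals mark matches, on either strand, to TATAAA, to CCAAT and to the octamer ATTTGCAT.
Hist3h2ba (chr11:58762213-58762412, + strand): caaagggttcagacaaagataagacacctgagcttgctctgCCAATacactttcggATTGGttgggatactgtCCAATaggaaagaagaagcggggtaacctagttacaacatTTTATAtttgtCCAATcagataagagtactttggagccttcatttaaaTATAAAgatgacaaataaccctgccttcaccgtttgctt
Hist3h2a (chr11:58767987-58768186, + strand): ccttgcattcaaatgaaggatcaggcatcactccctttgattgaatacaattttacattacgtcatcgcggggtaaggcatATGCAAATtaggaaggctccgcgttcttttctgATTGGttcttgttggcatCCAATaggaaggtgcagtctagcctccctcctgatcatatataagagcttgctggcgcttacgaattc
Hist1h2bb (chr13:23838403-23838602, + strand): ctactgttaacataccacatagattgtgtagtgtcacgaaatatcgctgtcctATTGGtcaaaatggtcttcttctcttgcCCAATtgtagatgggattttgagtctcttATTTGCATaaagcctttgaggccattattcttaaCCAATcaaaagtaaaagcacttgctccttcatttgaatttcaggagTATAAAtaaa
Hist2h2be (chr3:96024844-96025043, + strand): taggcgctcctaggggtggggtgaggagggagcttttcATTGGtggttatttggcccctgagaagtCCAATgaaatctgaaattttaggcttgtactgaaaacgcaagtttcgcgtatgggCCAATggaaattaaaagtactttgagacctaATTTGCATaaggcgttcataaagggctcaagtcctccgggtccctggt
Hist1h1d (chr13:23646701-23646900, + strand): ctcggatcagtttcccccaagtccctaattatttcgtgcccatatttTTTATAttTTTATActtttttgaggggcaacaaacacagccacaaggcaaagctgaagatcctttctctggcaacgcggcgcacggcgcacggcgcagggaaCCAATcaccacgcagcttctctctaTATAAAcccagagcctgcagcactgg
Hist1h1a (chr13:23855337-23855536, + strand): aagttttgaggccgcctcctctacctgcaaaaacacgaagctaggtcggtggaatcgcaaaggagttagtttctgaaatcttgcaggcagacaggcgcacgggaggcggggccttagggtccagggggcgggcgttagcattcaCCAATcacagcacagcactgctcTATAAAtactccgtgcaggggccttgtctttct
Of the Hist3 genes shown, TATAAA was present before Hist3h2ba only and the octamer before Hist3h2a only. They lie on the same strand and are not a divergent pair. The octamer, at -119 from the TSS of Hist3h2a, is the same site as that at -61 from the divergent pseudogene Hist3h2bb-ps. Between 250 bases before and 50 after the TSS, TATAAA occurred in 38 of the 70 histone genes (54.3%) against 13.4% of 22380 protein-coding genes. CCAAT occurred in 59 (84.3%) against 37.9%. The octamer occurred in 16 (22.9%) against 1.7%, and those 16 were 7 H2A and 9 H2B genes. A site between divergent genes counts for both, as between Hist2h2ac and Hist2h2be, so these are counts of genes and not of separate sites. CCAAT was found in 6 of 6 H1 and 19 of 19 H2B genes but in 4 of 13 H4 genes. A match is a description of these letters only.

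Near-identical copies limit what short reads can tell about this family. In the window from 200 bases before to 600 after the TSS, the median share of 80-base words found more than once in mm9 was 13.2% over the 29 genes with a region and 35.4% over the 41 genes without one. The share was 20% or more in 11 of the former and 34 of the latter. Hist1h2bq, Hist1h2ao, Hist1h2ap and Hist1h2br reached 100% and had no region, and the duplicated Hist2h2aa1, Hist2h2aa2, Hist2h3c1 and Hist2h3c2 reached 88.9% and had none. In contrast, the 6 H1 genes ranged from 0.0% to 13.6%. How many reads were lost or placed at random at the repeated words was not tested, so a gene without a region cannot be taken as unmarked. Counts were made over whole regions, in which the share was lower, with a median of 2.75% and a range of 0.0% to 21.1% over the 24 members. It was 10% or more in 5 of them, Hist1h4a (21.1%), Hist1h4c (12.6%), Hist1h2bb (11.3%), Hist1h3h (10.6%) and Hist1h4i (10.2%). By this share these 5 are the most exposed to lost or misplaced reads, and the effect on their levels was not tested. Reads from the tagged H2B gene were not told apart from those of the H2B genes.

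**Figure D1:**
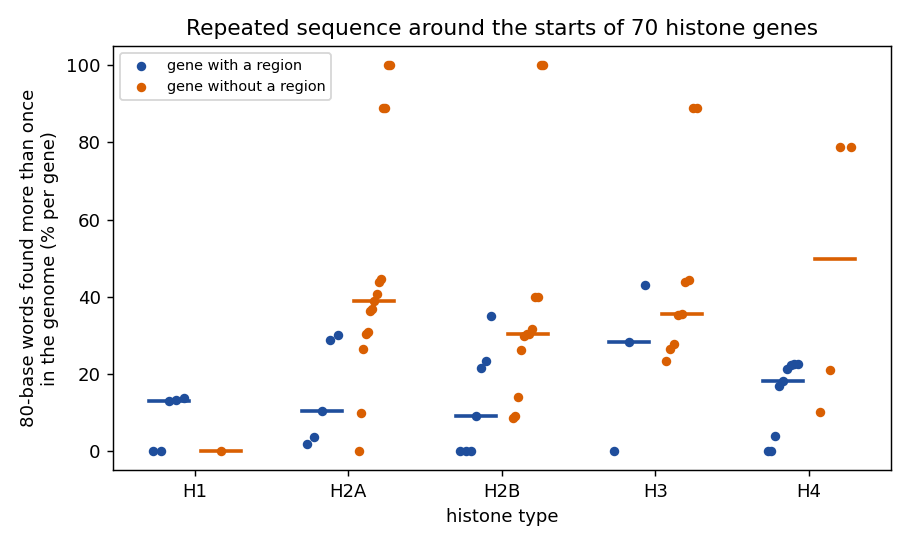
Share of 80-base words around each annotated start that occur more than once in mm9 (y axis, % per gene) for the 70 histone genes by type (x axis), with 1 point per gene and a bar at the median. Genes with a region (median 13.2%) lie lower than genes without one (median 35.4%) in H2A, H2B, H3 and H4, while the 6 H1 genes stay at or below 13.6%.

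Library totals were 6316125 to 8644574 counts in Rosa single ChIP-Seq, 1457261 to 1828371 in Rosa tChIP-Seq, 4063200 to 4233144 in Camk2a single ChIP-Seq and 2709729 to 3049130 in Camk2a tChIP-Seq. The median member region held 206 to 270, 50 to 68, 124 to 136 and 72 to 82 counts per library in these groups, so the Rosa tChIP-Seq values are the least precise. The tissue and cell labels were checked against markers. Of the excitatory neuron genes, Camk2a, Slc17a7, Neurod6 and Nrgn had a region and Tbr1 had none. These 4 summed to 214.5 to 239.0 counts per 1000000 counts of a scaled library (CPM) in Rosa tChIP-Seq and 730.0 to 783.4 CPM in Camk2a tChIP-Seq. Camk2a, whose promoter drives the Cre, held a mean of 339.3 CPM of the latter. It was also higher in the Camk2a line by single ChIP-Seq (174.0 against 249.8 CPM, log2 fold change 0.52, adjusted p = 3.74e-27 by edgeR). Slc17a7, Neurod6 and Nrgn were called higher by tChIP-Seq but not by single ChIP-Seq. The 5 endothelial genes with a region of 6 summed to 195.7 to 199.5 and 36.8 to 46.4 CPM, and the 5 astrocyte genes with a region of 6 to 343.9 to 399.6 and 156.5 to 170.6 CPM. Inhibitory neuron genes (5 of 6 with a region) summed to 131.2 to 149.8 and 67.1 to 70.9 CPM, and those of oligodendrocytes and their precursors (6 of 8) to 230.8 to 255.2 and 178.7 to 187.6 CPM. Of the last, Mbp, a myelin gene, was higher in Camk2a tChIP-Seq (50.8 ± 3.16 against 114.5 ± 6.47 CPM, SD, n = 3; log2 fold change 1.18, SE 0.0943, adjusted p = 7.66e-19 by edgeR). Cspg4, Mog, Olig1 and Olig2 were lower, and without Mbp the other 5 summed to 181.9 to 200.8 and 65.6 to 72.2 CPM. In Rosa single ChIP-Seq the sums were 501.1 to 511.0 (excitatory), 147.2 to 160.1 (endothelial), 269.0 to 278.3 (astrocyte), 105.5 to 111.7 (inhibitory) and 258.4 to 265.2 CPM (oligodendrocyte). By these sums Rosa tChIP-Seq lay below single ChIP-Seq of its own line for excitatory and oligodendrocyte genes and above it for the others. Without Mbp the oligodendrocyte sums overlapped, with 187.3 to 192.4 CPM in Rosa single ChIP-Seq and 181.9 to 200.8 CPM in Rosa tChIP-Seq. None of 6 microglia genes had a region. In these bulk samples, fewer marked cells and less mark per cell cannot be told apart. The part of these marker shifts in the histone results was not tested.

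Per kb of region, the 24 member regions had a lower median level than regions at protein-coding TSSs. Genes without a region are not in this comparison, and whether repeated words lowered the member levels was not tested. The median member level was 18.7 CPM per kb in Rosa single ChIP-Seq, against 29.7 over 12985 regions at protein-coding TSSs. The corresponding pairs were 19.7 and 28.2 in Rosa tChIP-Seq, 17.7 and 29.4 in Camk2a single ChIP-Seq, and 16.3 and 29.5 in Camk2a tChIP-Seq. Between 1 and 4 of the 24 members exceeded the protein-coding median in a group. Member regions had a median width of 1506 bp against 2083 bp at protein-coding TSSs. They held 0.101% ± 0.00425 (SD, n = 3) of the counts of Rosa single ChIP-Seq, 0.109% ± 0.00322 of Rosa tChIP-Seq, 0.1% ± 0.000269 of Camk2a single ChIP-Seq and 0.0865% ± 0.00121 of Camk2a tChIP-Seq. After TMM scaling the members summed to a mean of 1042, 1041, 1012 and 865.0 CPM in the same order, so the higher share in Rosa tChIP-Seq was not seen on that scale.

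Over all libraries, the highest level per kb was at Hist3h2a with 33.7 CPM per kb, in a region that also covers the TSS of Trim17, a ubiquitin ligase gene. Next came the linker histone genes Hist1h1c (30.1) and Hist1h1e with Hist1h2be (27.2), then Hist4h4 (26.6), Hist2h2bb (26.5) and Hist1h1d (26.4), all in CPM per kb. The library values of Hist4h4 and Hist2h2bb, which follow each other in this order of levels, overlapped in all 4 groups. Within Hist1a the order of levels was led by Hist1h1b (23.8), Hist1h4k (15.1) and Hist1h3h (14.9), and Hist1h4j was lowest with 11.4 CPM per kb. In Hist1b the pair Hist1h2ae and Hist1h2bg was lowest with 10.3 CPM per kb.

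**Figure D2:**
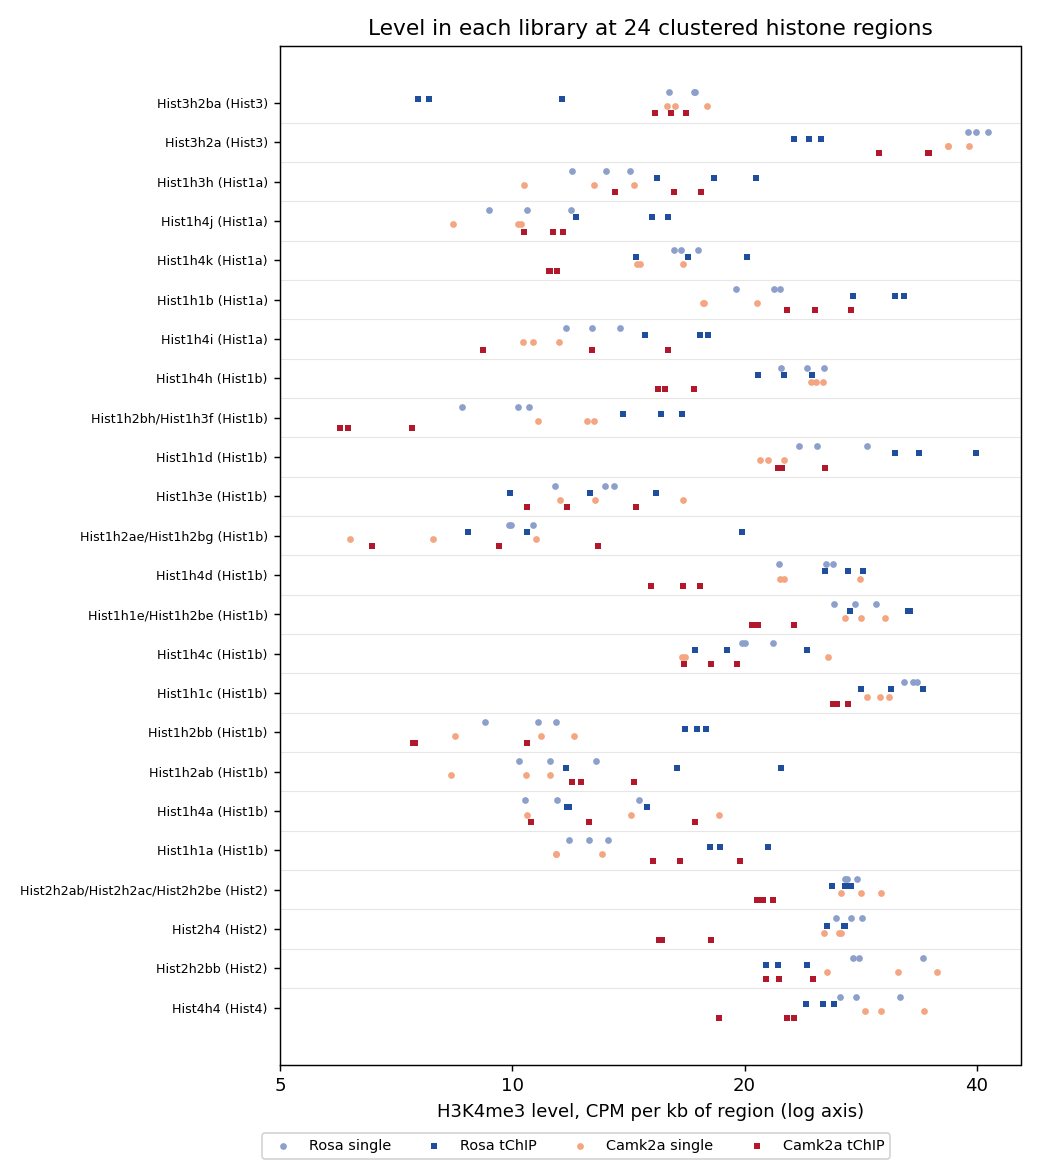
H3K4me3 level (x axis, CPM per kb of region, log axis) of the 24 histone regions (y axis, with their cluster) in each of the 12 libraries, 1 point per library. Hist3h2ba and Hist3h2a have their Rosa tChIP-Seq points lowest, and at Hist1h2bh with Hist1h3f and at Hist2h4 the 3 Camk2a tChIP-Seq points are lowest.

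The comparison of the lines by tChIP-Seq sets chromatin of Camk2a-positive neurons against that of nearly all cells of the cortex. At the marker genes, Rosa tChIP-Seq itself differed from Rosa single ChIP-Seq. A difference between the lines can therefore lie in either tChIP-Seq group. By this comparison the Hist3 genes were higher in the Camk2a line, and 9 regions of Hist1 and Hist2 were lower. EdgeR's quasi-likelihood test with Benjamini-Hochberg adjustment over all 17993 regions, used for every adjusted p here with a threshold of 0.01, called 2 of 24 members higher and 9 lower. Over all regions 17% were called higher and 14.6% lower. The median log2 fold change was -0.34 over the members and -0.01 over the protein-coding TSS regions. In single ChIP-Seq of the same lines, no member was called in either direction, where 0.928% of all regions were higher and 1.22% lower. Unadjusted p-values there were under 0.05 with edgeR for 5 of 24 members, against 3957 of all 17993 regions. With DESeq2 they were under 0.05 for 2 members, and DESeq2 also called none.

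Hist3h2ba, an H2B gene at chr11:58761384-58764260 (mm9, like all coordinates here), had 22.4, 33.4 and 21.7 CPM in the Rosa tChIP-Seq libraries. The Camk2a tChIP-Seq libraries had 44.0, 46.2 and 48.3 CPM, all above the Rosa values. The log2 fold change was 0.84 (SE 0.143, adjusted p = 6.31e-07). The lines overlapped by single ChIP-Seq, with 45.9, 49.4 and 49.6 CPM in Rosa and 46.8, 51.5 and 45.6 CPM in Camk2a. Their log2 difference was -0.01 with a 95% interval of -0.16 to 0.14. The neighbouring H2A gene Hist3h2a, in the region it shares with Trim17, had 86.6, 83.5 and 80 CPM in Rosa tChIP-Seq and 119.7, 119.4 and 103.1 CPM in Camk2a tChIP-Seq. These groups did not overlap either (log2 fold change 0.46, SE 0.0837, adjusted p = 3.48e-06).

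The lowest log2 fold change was at the region of Hist1h2bh and Hist1h3f, an H2B and an H3 gene (chr13:23635075-23636491). It had 23.5, 22.1 and 19.7 CPM in Rosa tChIP-Seq and 10.5, 8.66 and 8.47 CPM in Camk2a tChIP-Seq, so that every Camk2a library was lower (log2 fold change -1.23, SE 0.208, adjusted p = 6.04e-07). The order was the opposite by single ChIP-Seq, with 14.9, 12.2 and 14.4 CPM in Rosa and 15.3, 18.1 and 17.7 CPM in Camk2a, which did not pass the test (log2 difference 0.31, SE 0.135, adjusted p = 0.147). The H2B gene Hist1h2bb (chr13:23837542-23838681, a region with another start, that of Gm11336) had 19.8, 19.1 and 20.3 CPM in Rosa tChIP-Seq. It had 8.53, 11.9 and 8.47 CPM in Camk2a tChIP-Seq, again without overlap. Its log2 fold change was -1.03 (SE 0.214, adjusted p = 3.85e-05).

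Among the 9 H4 regions, 4 were called lower and none higher, with a median log2 fold change of -0.43. Over all regions 14.6% were lower and 17% higher. Hist1h4d fell by 0.71 on the log2 scale (SE 0.15, adjusted p = 4.42e-05), from 36.5, 38.2 and 34.1 CPM to 22.3, 23.5 and 20.3 CPM. Hist2h4 fell by 0.68 (SE 0.109, adjusted p = 1.4e-07), from 69.9, 69.8 and 66.3 CPM to 46.9, 40.1 and 40.5 CPM. Hist1h4k fell by 0.61 (SE 0.152, adjusted p = 0.000568), and was not called without Rosa tChIP-Seq replicate 1 (log2 fold change -0.47). Hist1h4h, in a region with the start of Gm11335, fell by 0.47 (SE 0.112, adjusted p = 0.000318). The other 5, Hist1h4a, Hist1h4c, Hist1h4i, Hist1h4j and Hist4h4, had log2 fold changes of -0.43 to 0.07 and did not pass. Hist4h4 had 40.7, 39.4 and 37.4 CPM in Rosa and 35.4, 28.9 and 36.1 CPM in Camk2a, without overlap (log2 fold change -0.22, SE 0.135, adjusted p = 0.191).

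All 5 linker histone regions had log2 fold changes below 0, as had 20 of the 24 members and 9087 of all 17993 regions. Of the 5, 2 passed, where 14.6% of all regions were lower. Hist1h1d had 87.7, 74.0 and 68.9 CPM in Rosa tChIP-Seq and 49.2, 55.9 and 48.6 CPM in Camk2a tChIP-Seq, without overlap (log2 fold change -0.59, SE 0.104, adjusted p = 1.3e-06). Its single ChIP-Seq values differed in the same direction, with 63.3, 54.6 and 51.7 CPM against 46.0, 49.4 and 47.1 CPM, but did not pass (log2 difference -0.25, SE 0.0762, adjusted p = 0.0255). The region of Hist1h1e, where the annotated transcripts of Hist1h2be and Gm11398 also start, had 114.8, 113.9 and 95.8 CPM in Rosa and 71.5, 81.2 and 72.9 CPM in Camk2a (log2 fold change -0.53, SE 0.0863, adjusted p = 2.6e-07). The start codon of Hist1h2be lies 35168 bases from that start. The other 3 did not pass. The log2 difference was -0.28 at Hist1h1b (SE 0.0984, adjusted p = 0.0174), -0.21 at Hist1h1c (SE 0.0862, adjusted p = 0.0399) and -0.17 at Hist1h1a (SE 0.135, adjusted p = 0.349). Between the lines by single ChIP-Seq it was -0.19 at Hist1h1b (adjusted p = 0.113) and -0.14 at Hist1h1c (adjusted p = 0.0779). There it was -0.07 at Hist1h1a and 0.03 at the region of Hist1h1e with Hist1h2be, and none of these passed.

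In Hist2, the region over Hist2h2ab, Hist2h2ac and Hist2h2be (chr3:96022705-96026449) also holds the start of Gm15444. Hist2h2be is an H2B gene known to be expressed outside S phase as well. The region had 101.2, 97.2 and 103.0 CPM in Rosa tChIP-Seq and 79.1, 81.6 and 77.7 CPM in Camk2a tChIP-Seq, with every Camk2a library lower (log2 fold change -0.33, SE 0.0844, adjusted p = 0.000762). Hist2h2bb, another H2B gene, had 35.0, 31.0 and 32.1 CPM in Rosa and 32.2, 31.0 and 35.7 CPM in Camk2a, and these overlapped. Its log2 difference was 0.01 with a 95% interval of -0.27 to 0.29. Neither of the 2 regions with an H3 gene alone was called, and their intervals were wide (Hist1h3h -0.58 to 0.15, Hist1h3e -0.46 to 0.37 on the log2 scale).

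**Figure D3:**
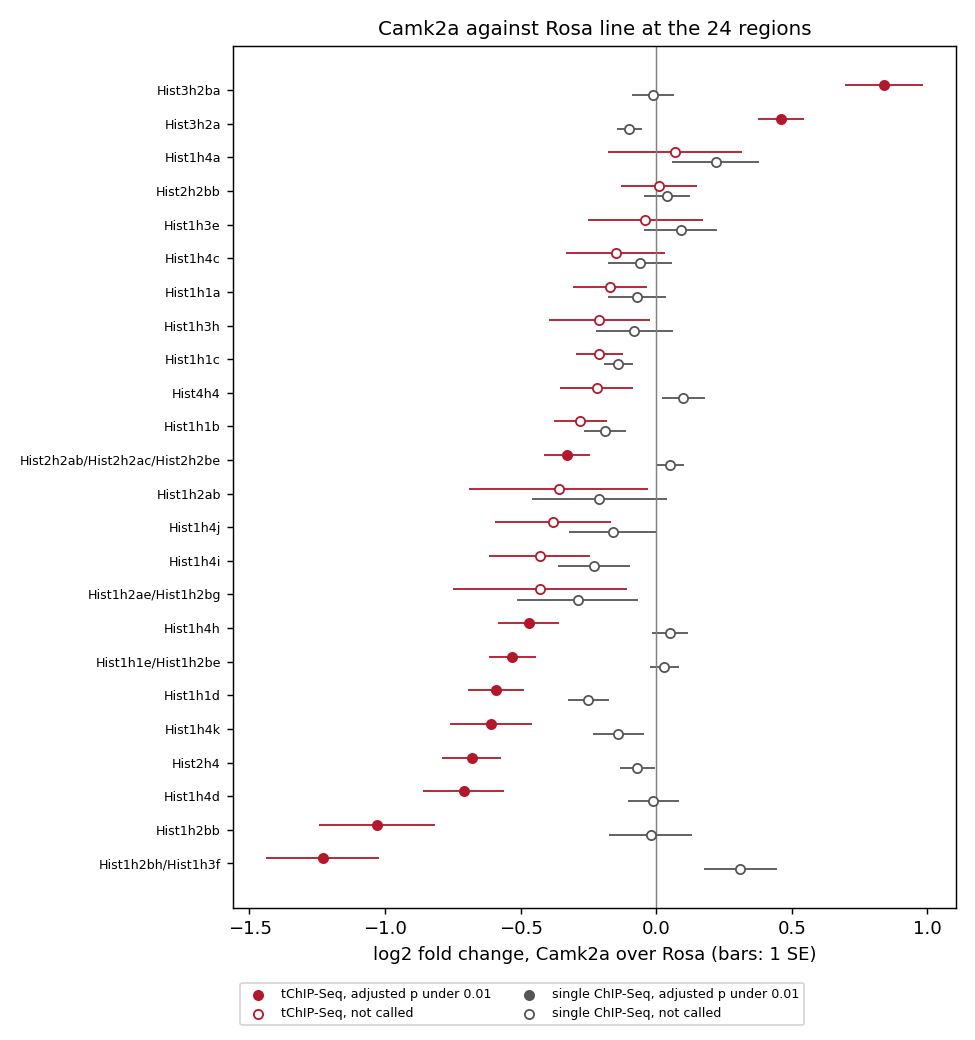
log2 fold change of the Camk2a over the Rosa line (x axis, bars 1 SE) at the 24 regions (y axis), in tChIP-Seq (red) and single ChIP-Seq (grey). Filled points passed the adjusted p threshold of 0.01. In tChIP-Seq 2 regions, both of Hist3, are higher and 9 are lower, and no single ChIP-Seq point is filled.

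Whether the effect of the line depended on the assay was tested over all 12 libraries. It called 2 members higher and 7 lower, while 13.7% of all regions were higher and 13.2% lower. The higher ones were Hist3h2ba (log2 difference 0.84, SE 0.163, adjusted p = 2.96e-06) and Hist3h2a (0.55, SE 0.0957, adjusted p = 2.31e-07). The lower ones ran from Hist1h2bh with Hist1h3f (-1.55, SE 0.252, adjusted p = 2.54e-08) and Hist1h2bb (-1.02, SE 0.267, adjusted p = 0.000852) to the Hist2h2ab, Hist2h2ac and Hist2h2be region (-0.39, SE 0.1, adjusted p = 0.000628). Hist1h1d (-0.35, adjusted p = 0.0246) and Hist1h4k (-0.49, adjusted p = 0.0235) were called in tChIP-Seq but their difference of effects did not pass.

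tChIP-Seq was next compared with single ChIP-Seq within each line. In the Rosa line, where tagged H2B is in nearly all cells, 5 of 24 members were higher by tChIP-Seq and 3 were lower, against 24.7% and 22.5% of all regions. Scaling by library totals alone gave 8 and 2. In the Camk2a line, 2 members were higher and 10 lower, against 25.3% and 22.6% of all regions. These comparisons share their libraries with those of the lines, so they are not separate evidence.

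Of the linker histone genes, Hist1h1a and Hist1h1b were higher by tChIP-Seq in both lines. Hist1h1a had 24.3, 25.8 and 27.3 CPM in Rosa single ChIP-Seq and 37.0, 38.2 and 44.0 CPM in Rosa tChIP-Seq (log2 fold change 0.63, SE 0.127, adjusted p = 3.61e-06). In the Camk2a line it had 26.8, 23.4 and 23.4 CPM by single ChIP-Seq and 31.2, 33.9 and 40.5 CPM by tChIP-Seq (0.51, SE 0.122, adjusted p = 0.000133), and this call was lost without Camk2a tChIP-Seq replicate 3 (log2 fold change 0.40). The assays did not overlap in either line. Hist1h1b likewise was higher by 0.53 in Rosa (SE 0.0899, adjusted p = 2.68e-08) and 0.42 in Camk2a (SE 0.0905, adjusted p = 2.33e-05) on the log2 scale. Hist1h1d was higher in Rosa by 0.47 (SE 0.0886, adjusted p = 7.7e-07) and was not called in Camk2a (0.11, SE 0.0944, adjusted p = 0.327). The region of Hist1h1e with Hist1h2be was lower in Camk2a, where it fell by 0.41 (SE 0.0718, adjusted p = 1.8e-07), and was not called in Rosa (0.17, SE 0.0708, adjusted p = 0.0336). Hist1h1c was called in neither line.

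The H2B genes went both ways in the Rosa line. Hist1h2bb had 12.3, 13.0 and 10.5 CPM by single ChIP-Seq and was higher by tChIP-Seq, at 0.72 on the log2 scale (SE 0.179, adjusted p = 0.000188). The Hist1h2bh and Hist1h3f region was higher by 0.68 (SE 0.17, adjusted p = 0.000179). Hist3h2ba instead fell by 0.89 (SE 0.127, adjusted p = 2.04e-11) and Hist3h2a by 0.71 (SE 0.0717, adjusted p = 1.07e-21). Hist2h2bb fell by 0.40 (SE 0.121, adjusted p = 0.00258), but that call held in 7 of 13 alternative fits. In the Camk2a line Hist3h2ba differed by -0.06 between the assays (95% interval -0.25 to 0.13). Hist3h2a fell by 0.18 (SE 0.0608, adjusted p = 0.0084), a call that held in 5 of 13 alternative fits.

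Of the 9 H4 regions, 5 were lower by tChIP-Seq in the Camk2a line and none in the Rosa line. Of all regions, 22.6% and 22.5% were lower in these lines. Hist4h4 had 46.8, 44.6 and 53.3 CPM by single ChIP-Seq of the Camk2a line and fell by 0.52 (SE 0.106, adjusted p = 7.11e-06). In the Rosa line its log2 difference was -0.18 (SE 0.114, adjusted p = 0.167). Hist2h4 fell by 0.67 (SE 0.091, adjusted p = 4.93e-11), with single ChIP-Seq values of 69.2, 68.7 and 65.8 CPM. Hist1h4h fell by 0.62 (SE 0.0903, adjusted p = 9.43e-10). The test of the difference between the lines called Hist1h4h (-0.52), Hist1h4d (-0.72) and Hist2h4 (-0.62), and did not call Hist4h4 (-0.33, SE 0.158, adjusted p = 0.0911). The largest fall in the Camk2a line was at Hist1h2bh with Hist1h3f, by 0.88 (SE 0.188, adjusted p = 2.22e-05).

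**Figure D4:**
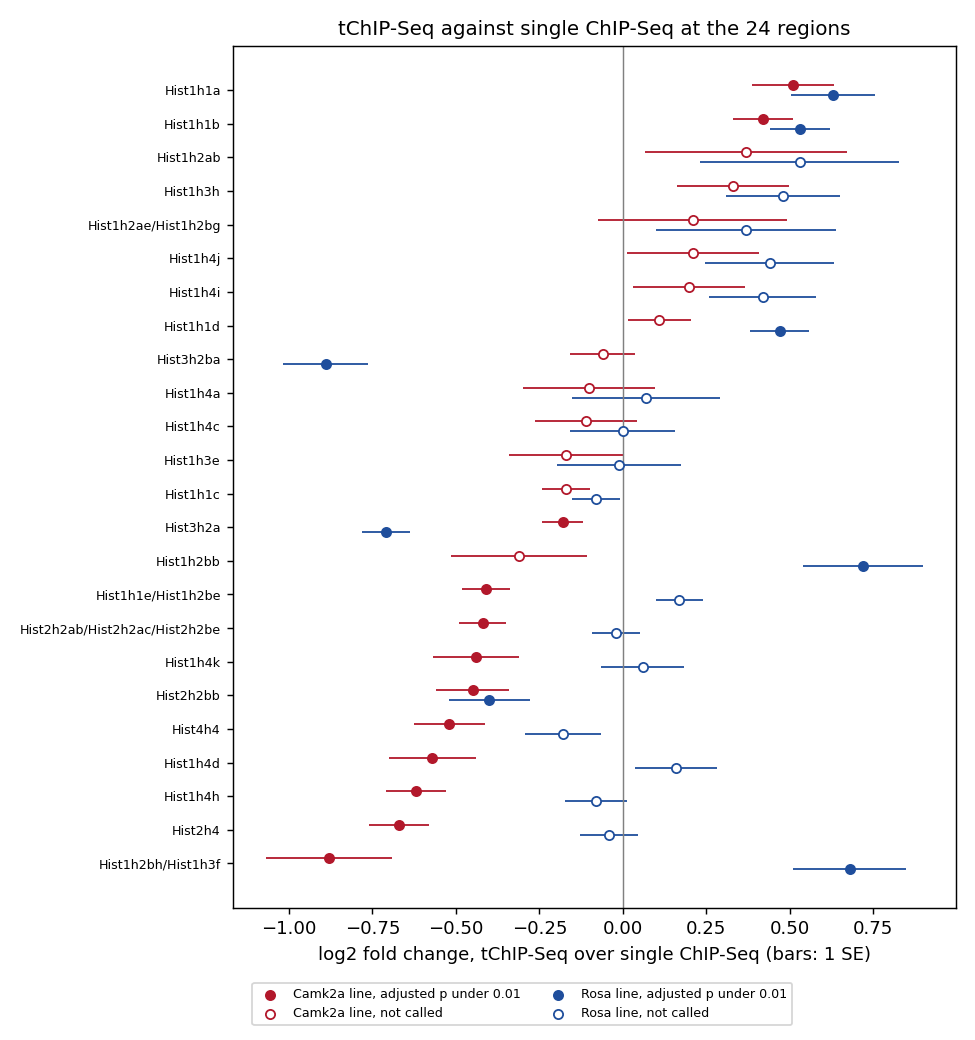
log2 fold change of tChIP-Seq over single ChIP-Seq (x axis, bars 1 SE) at the 24 regions (y axis) in the Camk2a line (red) and the Rosa line (blue), with filled points past the adjusted p threshold of 0.01. Hist1h1a and Hist1h1b lie right of 0 in both lines, Hist3h2ba and Hist3h2a lie far left in the Rosa line, and 10 regions are filled left of 0 in the Camk2a line.

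The levels were also summed over the regions of each cluster. Hist3 summed to 183.9 to 188.6 CPM in Rosa single ChIP-Seq, 101.7 to 116.9 in Rosa tChIP-Seq, 172.2 to 186.1 in Camk2a single ChIP-Seq and 151.4 to 165.6 in Camk2a tChIP-Seq. Hist2 summed to 209.9 to 227.8, 198.0 to 206.1, 217.3 to 221.3 and 152.6 to 158.1 CPM in the same order, with Camk2a tChIP-Seq below all others. Hist1a summed to 123.2 to 134.6, 157.5 to 184.2, 108.6 to 126.9 and 130.6 to 134.6 CPM, with Rosa tChIP-Seq above all others. Hist1b was highest in Rosa tChIP-Seq (509.1 to 530.8 CPM) and lowest in Camk2a tChIP-Seq (373.7 to 398.7 CPM). Hist4, with its single region, had 41.4 to 49.5, 37.4 to 40.7, 44.6 to 53.3 and 28.9 to 36.1 CPM in the order above. Camk2a tChIP-Seq was thus lowest in Hist2, Hist1b and Hist4, and Rosa tChIP-Seq was highest in Hist1a and Hist1b. These sums are descriptions without a test.

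**Figure D5:**
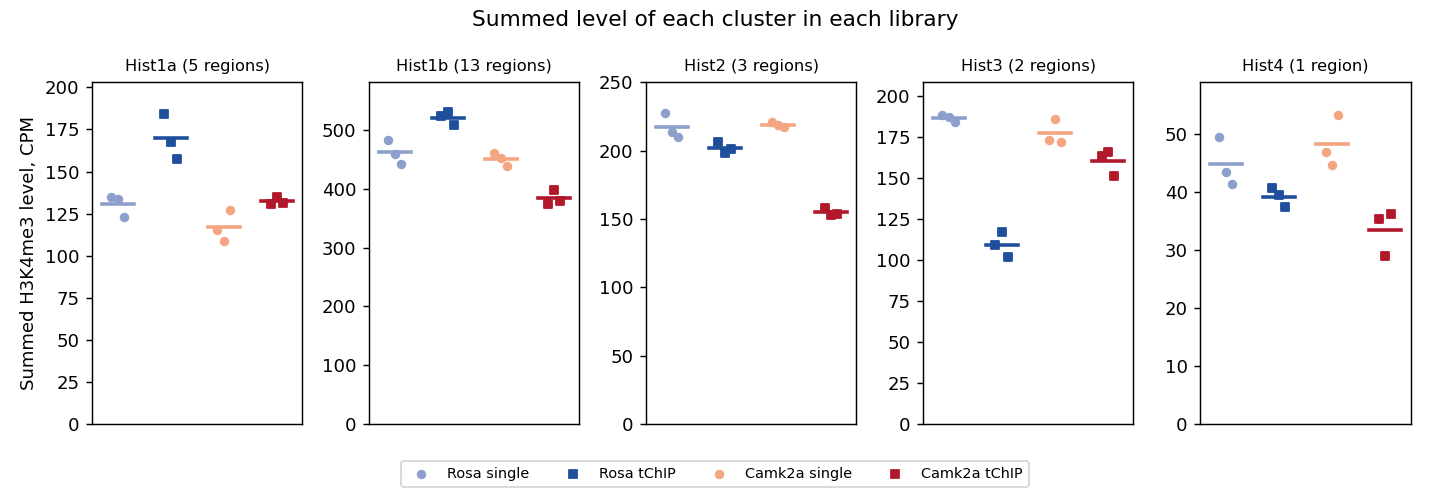
Summed H3K4me3 level (y axis, CPM, from 0) of the histone regions of each cluster in each of the 12 libraries (points) with the group mean (bar), 1 panel per cluster. Rosa tChIP-Seq is lowest in Hist3 (101.7 to 116.9 CPM), and Camk2a tChIP-Seq is lowest in Hist2 (152.6 to 158.1 CPM), Hist1b (373.7 to 398.7 CPM) and Hist4 (28.9 to 36.1 CPM).

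Within the spans of the clusters, 28 other regions overlapped no histone TSS. In the tChIP-Seq comparison of the lines, 3 of these (10.7%) were higher and 4 (14.3%) lower, against 17% and 14.6% of all regions. Of the 13 that lay within 1000 bp of a histone TSS, none was higher and 3 were lower (median log2 fold change -0.33), while of the 15 farther away 3 were higher and 1 was lower (median 0.02). None of the 28 was called in single ChIP-Seq by edgeR, where 0.928% of all regions were higher and 1.22% lower. The unadjusted p by edgeR was under 0.05 for 4 of them, against 3957 of all 17993 regions.

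Other histone and replication genes were taken from lists, whose counts in the tChIP-Seq comparison of the lines stand against 17% of all regions higher and 14.6% lower. All 11 genes of replication-independent histones had a region, and in the tChIP-Seq comparison of the lines 1 was higher and 4 were lower, with a median log2 fold change of -0.15. H1fx, a linker histone variant, was higher by 0.27 (SE 0.0771, adjusted p = 0.00236). H3f3b, which encodes the replacement histone H3.3, fell by 0.53 (SE 0.112, adjusted p = 5.53e-05), whereas the value of H3f3a, which encodes the same protein, was 0.08 (SE 0.0679, adjusted p = 0.353). H1f0, a linker histone of resting cells, fell by 0.36 (SE 0.0685, adjusted p = 5.95e-06), Cenpa, the centromeric H3, by 0.51 (SE 0.145, adjusted p = 0.00256) and H2afv, an H2A.Z gene, by 0.39 (SE 0.127, adjusted p = 0.00981).

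Of 15 histone mRNA and locus factors with a region, 1 was higher (Lsm11, a subunit of the U7 particle that cuts histone mRNAs, 0.31, SE 0.0886, adjusted p = 0.00258) and none lower. Ice1, Ice2 and Symp were not annotated under these symbols. Of 18 chaperone genes with a region, none was higher and 3 were lower, Asf1a, Chaf1b and Ubn1. Spt16 and Supt16 were not annotated under these symbols. Among 27 DNA replication and S phase genes with a region (Mcm2 had none), none was higher and 10 were lower, with a median of -0.32. The lower ones included Cdk1, a mitotic kinase (-0.92, SE 0.193, adjusted p = 4.6e-05), Mcm3, of the replicative helicase (-0.86, SE 0.177, adjusted p = 3.26e-05) and Mki67, a proliferation marker (-0.66, SE 0.133, adjusted p = 2.38e-05). In single ChIP-Seq of the lines, edgeR called none of these 27, where 0.928% of all regions were higher and 1.22% lower. By tChIP-Seq over single ChIP-Seq, 17 of the 27 were higher in the Rosa line and 4 in the Camk2a line, and none was lower. Over all regions 24.7% and 25.3% were higher and 22.5% and 22.6% lower in these comparisons.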

How the data were processed

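H3K4me3 was profiled in 12 libraries, 3 for each of 4 groups. The other 12 samples (input and anti-FLAG) were not analysed here. The files hold whole-number read counts per region, deposited by the authors, in 1 shared list of 17993 regions. Per the methods and the labels, the authors removed repeat reads with Bowtie2 2.1.0, mapped the rest to mm9 with Bowtie 1.0.0, removed duplicates with SAMtools (0.1.19 per the labels), called peaks with MACS and counted with bedtools 2.17.0. How reads with several best matches were treated and how peaks were merged are not given in the sources used here.

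Regions were joined to GENCODE M1 TSSs on the same build, and 25 regions on unplaced sequences could not be joined. Counts were tested with edgeR 4.0.16 (R 4.3.3) by the quasi-likelihood test with TMM scaling and no filter, on the 6 libraries of each comparison or all 12 for the difference of effects, and checked with DESeq2 1.42.0. Adjusted p-values were by Benjamini-Hochberg over all regions, with a threshold of 0.01. SEs were derived from the fold change and F. Levels are CPM after TMM over 12 libraries. The fits were tested on simulated data. Nothing says that the lysates of a group came from separate litters or days, so p-values measure the spread between these samples. Alternatives varied scaling, filters, tool, threshold, libraries, replicate block and the rule for members.

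Members and lists were chosen with earlier results of these data known. Named were up to 15 called members of the tChIP-Seq comparison of the lines, up to 4 called in each direction elsewhere, every Hist2, Hist3, Hist4 and H1 region, the 3 highest and the lowest level in each Hist1 part, and genes known from the testis or from outside S phase. Of a listed gene with several regions, that with the most counts was used. A marker gene on the lists is not reported here.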

Additional observations from a re-analysis of the deposited data

Results flagged for a closer look

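For 9 histone regions, the effect of the line (Camk2a over Rosa) in tChIP-Seq differed from the same effect in single ChIP-Seq by the test of that difference in edgeR over 12 libraries. On the log2 scale the difference was 0.84 at Hist3h2ba, 0.55 at Hist3h2a, -0.52 at Hist1h4h, -1.55 at Hist1h2bh with Hist1h3f, -0.72 at Hist1h4d, -0.57 at Hist1h1e with Hist1h2be, -1.02 at Hist1h2bb, -0.39 at Hist2h2ab with Hist2h2ac and Hist2h2be, and -0.62 at Hist2h4. At Hist1h2bh with Hist1h3f, each alternative fit gave the call, and leaving out 1 library moved the difference between -1.66 and -1.45. Groups of 3 libraries were too small for a test of single outlying libraries.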

How the results depend on the processing

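The counts of called members kept within 1.5 times of the reported ones under most alternatives, and no member was called in single ChIP-Seq of the lines under any fit at the 0.01 threshold. At 0.05, 1 member was lower there, and 9 were higher by tChIP-Seq in the Rosa line. That Rosa count, reported as 5, was 8 with library totals alone, 8 with at least 10 counts in every library, 3 without the 40% of regions with the lowest counts and 9 with TSSs within 1000 bp. In the Camk2a line, the count higher by tChIP-Seq was 1 without the 40% and 4 with TSSs within 1000 bp, and the count lower was 6 without the 40% (fewer members tested). Regions with no other TSS, 19 members, gave 1 higher and 5 lower in the tChIP-Seq comparison of the lines, 6 lower by tChIP-Seq in the Camk2a line, and 1 higher and 3 lower for the difference of effects. Leaving out 1 library gave 2 higher and 8 to 10 lower in the tChIP-Seq comparison, 0 in single ChIP-Seq, 5 to 7 higher and 2 to 3 lower in the Rosa line, 1 to 2 higher and 7 to 10 lower in the Camk2a line, and 2 higher and 7 to 8 lower for the difference. The 1 higher came without Camk2a tChIP-Seq replicate 3. Hist2h2bb in the tChIP-Seq comparison of the lines reversed to -0.06 with library totals alone and ranged from -0.05 to 0.07 when 1 library was left out. Where not stated, the cause was not tested. The titles number the assays of a line alike, and whether a number marks a shared lysate is not stated in the sources used here. Between the assays of a line, deviations of same-numbered libraries from their group means correlated at 0.002 to 0.052. Those of differently numbered libraries correlated at -0.033 to 0.019. These small values do not settle whether lysates were shared, and the pairing was not used in the reported fits. With the replicate block the counts were 2 and 9, 0 and 0, 5 and 3, 2 and 10, and 2 and 7, as without it. In both comparisons of the lines the block joined same-numbered libraries of different lines, so there it cannot bear on shared lysates. Over all regions, library totals alone changed the called higher and lower from 3062 and 2620 to 2570 and 3315 (lines, tChIP-Seq), from 167 and 219 to 194 and 57 (lines, single ChIP-Seq), from 4439 and 4046 to 5298 and 2522 (Rosa) and from 2466 and 2375 to 1894 and 2970 (difference). Depth limits the Rosa tChIP-Seq libraries most, where members held as few as 8 counts.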
